A study of Neurospora crassa with 19 samples.

Results

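The 7 genes described here encode transcription factors that set which carbon source the filamentous fungus Neurospora crassa uses. They are the activators clr-1 (NCU07705), clr-2 (NCU08042), xlr-1 (NCU06971), col-26 (NCU07788), vib-1 (NCU03725) and pdr-1 (NCU09033), and the repressor cre-1 (NCU08807). They were chosen by locus number for their known function, and make up 7 of the 9730 genes counted. Of the 7, 6 carry the same name in the RefSeq gene table of assembly NC12, and NCU09033 has no name there and is called pdr-1 as in the choice of genes.

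The series examined a chromatin remodeler, dim-1 (NCU06484), whose loss is described in its title as allowing DNA methylation in the wrong places. The values below came from 2 poly-A RNA libraries, replicates 1 and 2, of strain N5801, labelled as a complete deletion of dim-1, and the other 17 samples of the series were not analysed here. Both libraries came from shaken cultures kept for 16 h at 32 °C in Vogel's minimal medium, to which 1.5% sucrose was added. The labels name the material germinated conidia and do not say whether the duplicates were separate cultures, so the spread between them may be technical. No wild-type RNA was used here, so no level below can be read as raised or lowered by the loss of dim-1. All values describe 1 strain on 1 sugar.

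The counts over all genes came to 17364963 in replicate 1 and 13632746 in replicate 2. A count of 0 therefore allows up to 0.173 CPM (the counts of a gene scaled to a common library total) in replicate 1 and 0.220 in replicate 2. The gene labelled as deleted, dim-1, still had 258 counts in replicate 1 and 171 in replicate 2, or 14.9 and 12.5 CPM. That was above the CPM of clr-2 in both libraries (1.50 and 1.76) and of xlr-1 in replicate 2 (8.66). Divided by its length of 7732 bases from gene start to gene end, dim-1 had 1.92 and 1.62 CPM per kilobase. By that measure it stood above clr-2 (0.433 and 0.510) but below xlr-1 (7.43 and 2.51) in both libraries. The reads on dim-1 could lie in any part of it. The deletion is therefore given as the labels state it.

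Fungi that live on plants make the enzymes for each wall polymer only when it is present and when no better sugar is at hand. In Neurospora, CLR-1 and CLR-2 are required for growth on cellulose, XLR-1 for xylan, PDR-1 for pectin, and COL-26 takes part in starch use and the response to glucose. VIB-1 is known both from heterokaryon incompatibility, the death of fused cells of unlike type, and from the switch to cellulose. CRE-1, the counterpart of CreA in Aspergillus, holds genes for other carbon sources down while preferred sugars such as glucose are available. Sucrose, the sugar of these cultures, is split outside the cell into glucose and fructose.

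The repressor cre-1 had the highest level of the 7 regulators in both libraries. It held 19121 counts in replicate 1 and 13176 in replicate 2, or 1101 and 966 CPM. The mean was 1034 ± 95.2 CPM (SD, n = 2). Few detected genes stood above it per kilobase of gene span, the length from gene start to gene end. By that measure cre-1 lay at percentile 97.6 of detected genes in replicate 1 and 97.2 in replicate 2. Detection meant 10 counts or more in each library. Of all counts on the 7 regulators, cre-1 took 67.3% in replicate 1 and 68.5% in replicate 2. In bulk RNA, fewer cells that carry a transcript and less transcript per cell cannot be told apart.

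Genes that work with CRE-1 or signal to it had lower levels than cre-1 itself, above the median detected gene per kilobase for 3 of the 4 and below it for rco-3. The gene rco-1 (NCU06205), the counterpart of the yeast corepressor Tup1, had 368 CPM in replicate 1 and 379 in replicate 2. Its partner rcm-1 (NCU06842), the counterpart of yeast Ssn6, had 170 and 183 CPM. The gene prk-10 (NCU04566), the counterpart of the yeast kinase Snf1 that relieves glucose repression, had 135 and 118 CPM. The glucose sensor gene rco-3 (NCU02582; sor-4 in the gene table) had 46.7 and 31.4 CPM. Per kilobase of span, cre-1 stood 3.89-fold above rco-1 in replicate 1 and 3.32-fold in replicate 2, while its lead over rco-3 was 34.1-fold and 44.5-fold.

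The activators ranged from an abundant to a barely detected transcript. All 7 regulators were detected, as were 79.9% of all genes. Per kilobase of span, 3 of the 7 regulators (cre-1, vib-1 and col-26) lay above the median detected gene in both libraries, and the other 4 lay below it in both. That median was 13.3 CPM per kilobase in replicate 1 and 12.5 in replicate 2.

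The incompatibility and cellulose regulator vib-1 was the most abundant activator. It had 4521 counts in replicate 1 and 3829 in replicate 2, or 260 and 281 CPM (271 ± 14.5; SD, n = 2). Per kilobase its level of 76.5 and 82.5 CPM put it at percentiles 88.3 and 89.0 of detected genes. The starch and glucose regulator col-26 came next, with 2706 and 1174 counts, or 156 and 86.1 CPM (121 ± 49.3; SD, n = 2). It was the activator with the widest absolute gap between the libraries, and its percentile per kilobase was 76.1 in replicate 1 and 62.5 in replicate 2.

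Of the regulators of wall polymers, clr-1 and pdr-1 lay somewhat below the median detected gene per kilobase. The cellulose regulator clr-1 had 983 and 517 counts, or 56.6 and 37.9 CPM (47.3 ± 13.2; SD, n = 2), and stood at percentiles 45.8 and 37.6 per kilobase. Without division by span, clr-1 lay above the median detected gene, at percentiles 63.7 and 54.4. The pectin regulator pdr-1 had 600 and 386 counts, or 34.6 and 28.3 CPM (31.4 ± 4.41; SD, n = 2), at percentiles 37.5 and 35.0. The xylan regulator xlr-1 was lower and less alike between libraries, with 445 and 118 counts, or 25.6 and 8.66 CPM. Its mean per kilobase was 4.97 ± 3.48 CPM (SD, n = 2). Its percentile per kilobase was 33.4 in replicate 1 and 14.9 in replicate 2.

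The second cellulose regulator, clr-2, stood close to the limit of detection. It had 26 counts in replicate 1, or 1.50 CPM with an exact Poisson 95% interval of 0.978 to 2.19. In replicate 2 it had 24 counts, or 1.76 CPM (1.13 to 2.62). These levels lie above what a count of 0 allows, a bound that covers counting error only and takes no account of misassigned reads. At percentiles 0.637 and 1.42 per kilobase almost every detected gene was higher. The spans of clr-2, xlr-1 and vib-1 are nearly equal (3454, 3449 and 3403 bases), so differences among these 3 hardly depend on the division by length. CLR-1 is known to raise clr-2 when cellulose breakdown products are present. On sucrose, clr-1 stood above clr-2 by 26.8-fold per kilobase in replicate 1 (counting interval 18.2 to 41.2) and by 15.2-fold in replicate 2 (10.1 to 24.0).

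**Figure D1:**
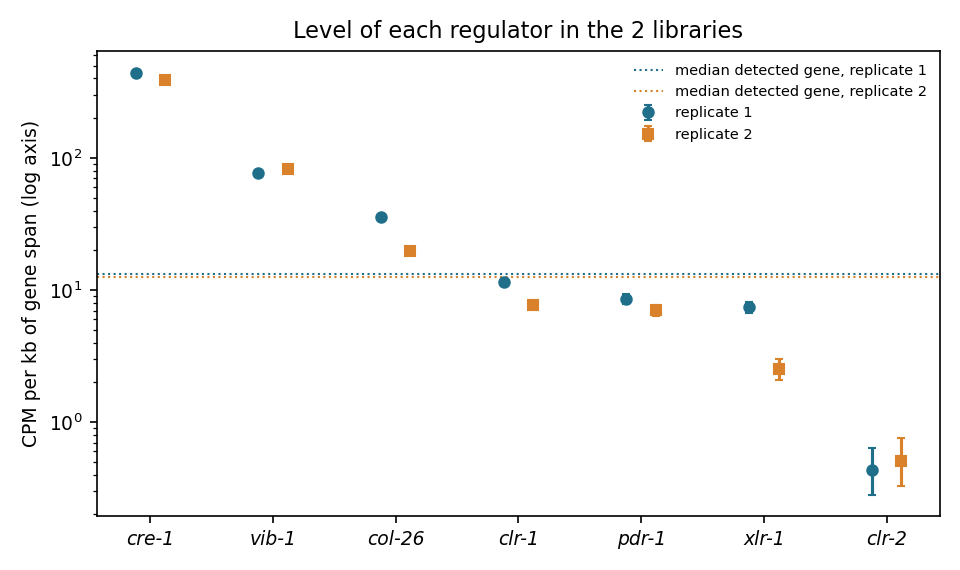
Level of each of the 7 regulators in CPM per kilobase of gene span (log axis), with circles for replicate 1, squares for replicate 2 and bars for the exact Poisson 95% interval of counting error; dotted lines mark the median detected gene of each library. The order from cre-1 to clr-2 is the same in both libraries, with cre-1, vib-1 and col-26 above the dotted lines and clr-2 far below them.

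Both libraries gave the regulators the same order of level, with and without division by span: cre-1, vib-1, col-26, clr-1, pdr-1, xlr-1 and clr-2. Some neighbours in that order were not separated beyond their spread. The values of clr-1 overlapped those of pdr-1, with clr-1 at 1.35-fold of pdr-1 per kilobase in replicate 1 (counting interval 1.22 to 1.50) and at 1.11-fold in replicate 2 (0.969 to 1.27). The values of pdr-1 and xlr-1 overlapped as well, with pdr-1 at 1.15-fold of xlr-1 in replicate 1 (1.02 to 1.31) and at 2.80-fold in replicate 2 (2.27 to 3.47). The other 4 steps did not overlap. The narrowest of those was vib-1 over col-26 in replicate 1, at 2.13-fold, and the widest was xlr-1 over clr-2 in replicate 1, at 17.1-fold.

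Each of the 6 activators was lower than the repressor cre-1 in both libraries. A ratio of genes within a library needs no scaling between libraries, and the interval given with each covers counting error only. Together the 6 activators summed to 140 CPM per kilobase in replicate 1, against 443 for cre-1, and to 120 in replicate 2, against 388. The repressor therefore stood 3.15-fold above the sum of all activators in replicate 1 and 3.23-fold in replicate 2. Without division by span these were 2.06-fold and 2.18-fold. Per kilobase, most of each sum was vib-1 (76.5 CPM in replicate 1 and 82.5 in replicate 2) and col-26 (35.9 and 19.8). The levels of vib-1 and col-26 shifted in opposite directions between the libraries, so the like folds do not show a fixed balance.

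Single activators ranged over more than 2 orders of magnitude below cre-1. The level of vib-1 was 17.3% of cre-1 per kilobase in replicate 1 (16.7 to 17.9) and 21.2% in replicate 2 (20.5 to 22.0). For col-26 it was 8.11% (7.78 to 8.44) and 5.10% (4.80 to 5.42). These were the activators closest to cre-1.

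The 3 regulators of single wall polymers with middling levels all lay at or below 2.62% of cre-1 per kilobase. The value of clr-1 was 2.62% of cre-1 in replicate 1 and 2.00% in replicate 2, and that of pdr-1 was 1.93% and 1.81%. Without division by span they were 5.14% and 3.92% for clr-1, and 3.14% and 2.93% for pdr-1. That of xlr-1 per kilobase was 1.68% (1.52 to 1.84) and 0.646% (0.534 to 0.774). The cellulose regulator clr-2 was lowest at 0.0979% (0.0640 to 0.144) and 0.131% (0.0840 to 0.195), which puts cre-1 at 1021-fold and 762-fold of clr-2. Without division by span the order stayed, but the folds were smaller, because cre-1 has the shortest span of the 7 (2488 bases): cre-1 then held 735 and 549 times the counts of clr-2.

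**Figure D2:**
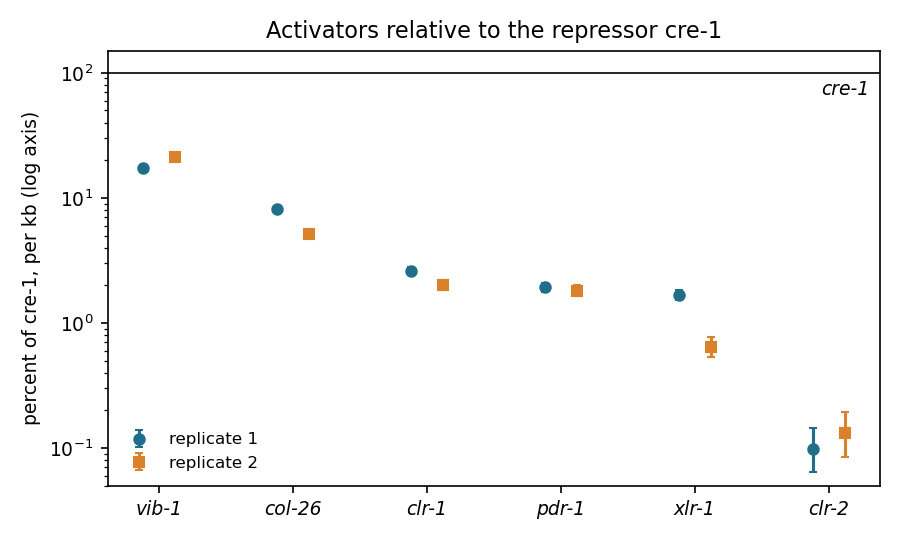
Level of each of the 6 activators as a percent of cre-1 in the same library, per kilobase of gene span (log axis), with circles for replicate 1, squares for replicate 2, bars for the exact 95% interval of counting error and a line at the level of cre-1. All points lie below the line, from 17.3% and 21.2% for vib-1 to 0.0979% and 0.131% for clr-2, and the points of xlr-1 and col-26 are further apart than those of pdr-1.

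The ratio of activator to repressor was nearest to equal in the libraries for pdr-1 and furthest from it for xlr-1. Set against cre-1, xlr-1 was 2.60 times as high in replicate 1 as in replicate 2 (exact interval 2.11 to 3.21), col-26 1.59 times (1.48 to 1.71) and clr-1 1.31 times (1.17 to 1.46). The shift of vib-1 ran the other way, at 0.814 times (0.775 to 0.854). The intervals of pdr-1 (1.07 times, 0.939 to 1.22) and clr-2 (0.747 times, 0.412 to 1.36) included equal ratios in the libraries. With its low counts, clr-2 could have shifted as far as clr-1 without being told from no shift.

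Between the replicates, 1 regulator was called different. The test was a two-sided exact binomial test of the reads of each gene, scaled by TMM, a scaling that assumes most genes are alike, with Benjamini-Hochberg adjustment over the 7898 genes that had 20 counts or more in sum. A call needed an adjusted p under 0.05 and at least a 2-fold difference. It compares these 2 libraries and not conditions, and it treats reads as independent. It called 6.15% of all tested genes, 5.04% as higher in replicate 1 and 1.11% as higher in replicate 2, so a single call among 7 regulators shows nothing about the regulators as a set.

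The called regulator was xlr-1, at 25.6 CPM in replicate 1 against 8.66 in replicate 2. Its fold was 2.84 in favour of replicate 1 (counting interval 2.32 to 3.52; log2 ratio 1.51, adjusted p = 3.2e-27 by the exact binomial test). Of all tested genes, 1.98% were at least that much higher in replicate 1. edgeR's exact test, which adds the spread between these libraries (a coefficient of variation of 23.8% beyond counting error) to the counting error, gave xlr-1 an adjusted p of 0.231. The spread was estimated from the same 2 libraries, so differences between them count as noise and edgeR's test leans towards no call. Here and below, the lack of a call by edgeR's exact test does not show equal levels. That test called 0 of the 7 regulators and 51 of 7898 genes (0.646%), and at an unadjusted p under 0.05 it held 1 regulator, xlr-1, and 434 genes.

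The other regulators differed by less than 2-fold between the libraries. After TMM scaling col-26 was 1.74-fold higher in replicate 1 (counting interval 1.62 to 1.87) and clr-1 1.44-fold (1.29 to 1.60). Smaller ratios in the same direction were 1.17-fold for pdr-1 (1.03 to 1.34) and 1.10-fold for cre-1 (1.07 to 1.12). The ratio leaned to replicate 2 for vib-1, at 1.12-fold, and for clr-2, at 1.22-fold on 26 and 24 counts. Of the 7, 6 had an adjusted p under 0.05 in the exact binomial test, the exception being clr-2 (adjusted p = 0.569), as did 57.3% of all tested genes. At these depths a small p was therefore common. In size the regulators formed a gradual run: 10.9% of tested genes differed by at least as much as col-26 in either direction, 24.9% by at least as much as clr-1, 49.7% as clr-2 and 75.0% as cre-1.

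**Figure D3:**
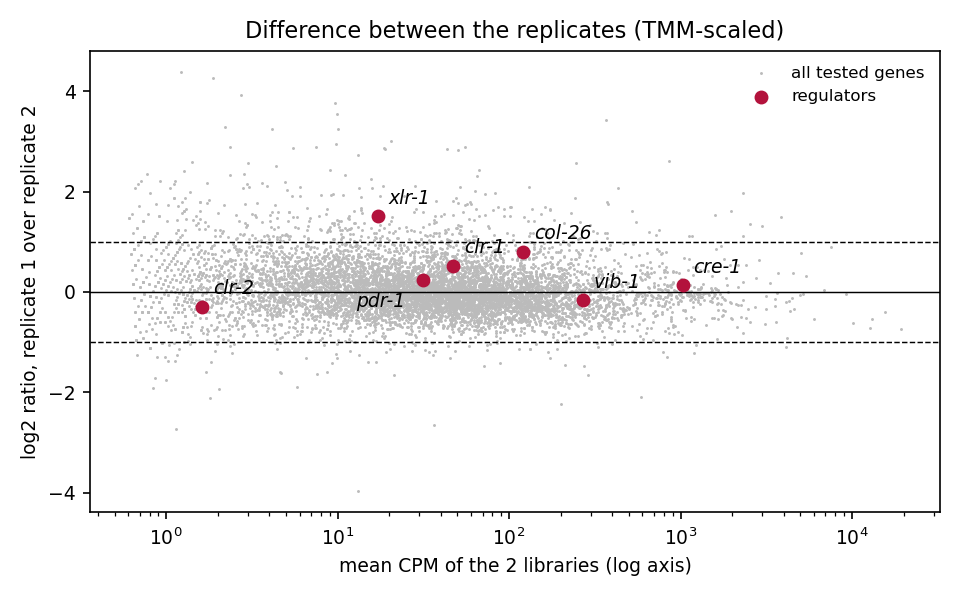
Log2 ratio of replicate 1 over replicate 2 after TMM scaling against mean CPM (log axis), with grey points for the 7898 tested genes, red points for the 7 regulators and dashed lines at a 2-fold difference. The gene xlr-1 lies above the upper dashed line at 1.51, col-26 and clr-1 lie below it at 0.80 and 0.52, and cre-1 and vib-1 lie near the line of no difference.

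Genes of cellulose use, most of which need CLR-1 and CLR-2, had low levels with a single exception. Of 9, 8 were detected, and the median per kilobase was 5.36 CPM in replicate 1 and 3.17 in replicate 2, against 13.3 and 12.5 over all detected genes. The cellodextrin transporter gene cdt-1 (NCU00801) was highest, with 60.6 CPM per kilobase in replicate 1 and 25.7 in replicate 2. The beta-glucosidase gene gh3-4 (NCU04952) was lowest, with 20 counts in replicate 1 and 3 in replicate 2. Per kilobase, cdt-1 stood 5.22-fold above its regulator gene clr-1 in replicate 1 and 3.31-fold in replicate 2.

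Of these 9 genes, 3 were called higher in replicate 1 by the exact binomial test and 0 higher in replicate 2, beside 5.04% and 1.11% of all tested genes. They were cdt-1 at 2.27-fold (adjusted p = 6.1e-138), the beta-glucosidase gene gh1-1 (NCU00130) at 2.15-fold (20.8 against 9.32 CPM) and gh3-4 at 4.42-fold on its few counts. edgeR's exact test called none of these 3, with adjusted p from 0.548 to 0.766. The median log2 ratio of the list was 0.60, beside 0.00 over all tested genes, and 8 of the 9 had the higher value in replicate 1, as did 49.8% of all tested genes. The choice of this list was made with that lean already known.

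Most xylanase genes, which need XLR-1, had next to no reads. Of 8 genes chosen for xylan use, 3 without a name in the gene table were left out. Of the other 5, 2 were detected. The xylanase gene gh10-2 (NCU08189) was lowest, with 2 counts in replicate 1 and 0 in replicate 2, no more than the 3 counts that a count of 0 allows. The xylanase genes gh10-1 (NCU05924) and gh11-2 (NCU07225) had at most 4 counts in a library and gh11-1 (NCU02855) had 127 and 94, all named after their values were seen. The xylose reductase gene xyr-1 (NCU08384; xr in the gene table) was highest at 45.1 and 36.7 CPM, and its level per kilobase of 16.4 and 13.3 CPM lay just above the median detected gene. Of the 5, 2 had enough counts to test, and the exact binomial test called 0 of them, which says little where 6.15% of all genes were called.

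Starch genes stood high, as did their regulator gene col-26, although not every member did. The amylase gene gh13-1 (NCU08131) had 1523 CPM in replicate 1 and 1085 in replicate 2. Per kilobase these were 502 and 358 CPM, beside 443 and 388 for cre-1. It stood 13.99-fold above col-26 in replicate 1 and 18.0-fold in replicate 2. Of the 3 starch genes with a name in the gene table, the lowest was a second amylase gene, gh13-2 (NCU09805), with 19 and 23 counts. The median per kilobase was 88.2 CPM in replicate 1 and 44.6 in replicate 2. The exact binomial test called 0 of the 3 in either direction, which says little beside 6.15% of all tested genes. All 3 had enough counts to test, and 2 of them leaned to replicate 1.

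Of 3 pectin genes with a name in the gene table, 2 were detected. The rhamnogalacturonase gene asd-1 (NCU05598) was highest, at 110 CPM in replicate 1 and 83.2 in replicate 2. The polygalacturonase gene gh28-2 (NCU06961) was lowest, with 70 counts in replicate 1 and 5 in replicate 2. It was called higher in replicate 1 by the exact binomial test, as were 5.04% of all tested genes. Its fold was 9.68 (adjusted p = 2.0e-11 by the exact binomial test, and 0.00273 by edgeR's exact test). The gene of the pectin regulator, pdr-1, differed by 1.17-fold between the same libraries and was not called.

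Genes of heterokaryon incompatibility, the process through which vib-1 was first known, were all 4 detected. None was called by the exact binomial test, which says little where 6.15% of all tested genes were called. The highest, het-c (NCU03493), had 188 CPM in replicate 1 and 204 in replicate 2. The lowest per kilobase, tol (NCU04453), had 8.98 and 12.03 CPM. Like vib-1, both had the higher value in replicate 2, while pin-c (NCU03494) and het-6 (NCU03533), named after their values were seen, had it in replicate 1. Of 6 other regulators chosen for plant cell wall use, 5 without a name in the gene table were left out. The 1 kept, the kinase gene ire-1 (NCU02202, stk-14 in the gene table), acts in the stress response of the secretory pathway. It had 210 and 185 CPM and was not called. None of the 4 genes that work with CRE-1 or signal to it was called either, which at that share says as little.

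**Figure D4:**
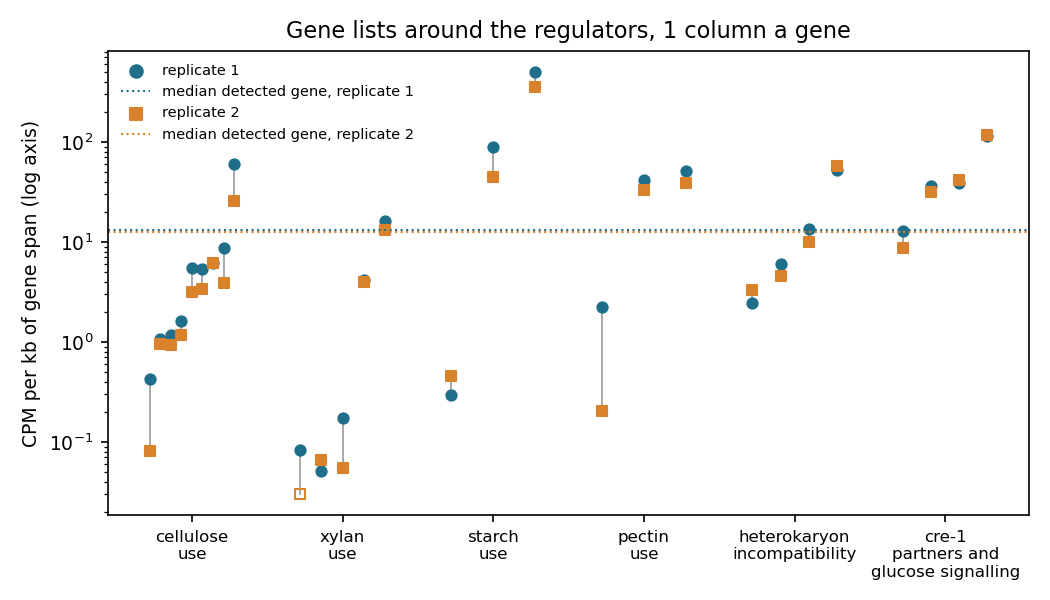
Level in CPM per kilobase of gene span (log axis) of the genes of 6 lists, 1 column a gene, with circles for replicate 1, squares for replicate 2, an open square for the gene with 0 counts (drawn at the foot of the axis) and dotted lines at the median detected gene of each library. Cellulose and xylan genes lie mostly below the dotted lines with cdt-1 as the highest of the former, and the starch gene gh13-1 is the highest point of all at 502 and 358 CPM per kilobase.

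Markers of growth state were measured in the same libraries, and their calls stand beside 6.15% called over all tested genes. All 7 glycolysis and fermentation genes with a name in the gene table had the higher value in replicate 2. Their median log2 ratio was −0.61 (replicate 1 over 2). By mean level pfk (NCU00629, emp-3 in the gene table) was lowest, at 163 and 271 CPM per kilobase. The highest by mean was gpd-1 (NCU01528), at 6371 and 8120. In replicate 2 cfp (NCU02193), named after its values were seen, stood above gpd-1, at 5411 and 8658 CPM per kilobase in replicates 1 and 2. The exact binomial test called 1 of the 7, fba (NCU07807), at 2.13-fold higher in replicate 2, which edgeR's exact test did not call (adjusted p = 0.661). Of 8 conidiation genes, all detected, 6 had the higher value in replicate 1, while eas (NCU08457; 53.6 against 76.0 CPM) and con-6 (NCU08769; 1.21 against 2.05), both named after their values were seen, had it in replicate 2. The exact binomial test called 2 of the 8, con-10 (NCU07325) at 4.23-fold and con-8 (NCU09235) at 2.06-fold, both higher in replicate 1. Of these, edgeR's exact test called con-10 (adjusted p = 0.0191) and not con-8 (0.797). The summed level of all 8 was 728 CPM in replicate 1 and 507 in replicate 2, and their median 59.1 and 60.1 CPM. The list ran from csp-1 (NCU02713) at 131 and 95.5 CPM per kilobase to acon-3 (NCU07617) at 0.513 and 0.342. The part of growth state in the differences of xlr-1, col-26 and clr-1 was not tested.

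Since no strand setting is known for the counting, the genes beside each regulator were examined as well. Only protein-coding genes were taken as neighbours, so overlap with genes of other kinds was not checked. The 14 protein-coding genes next to the 7 regulators in the gene table had no span that overlapped a regulator's. The exact binomial test called 0 of them, beside 6.15% of all tested genes, which says little about so few. NCU16830, NCU08043, NCU06973 and NCU03721 had fewer than 20 counts in sum and could not be called. The clock-controlled gene ccg-14 (NCU07787), next to col-26, was by far the most abundant, at 9959 CPM in replicate 1 and 5180 in replicate 2. It was 1.85-fold higher in replicate 1, beside 1.74-fold for col-26, and the counts of col-26 came to 1.56% of those of ccg-14 in replicate 1 (1.51 to 1.63) and 1.66% in replicate 2 (1.57 to 1.76). The gene before xlr-1, NCU06970, was 1.62-fold higher in replicate 1 (141 against 83.8 CPM), while the gene after it had 0 counts in both. The gene before pdr-1, NCU09032, was 1.46-fold higher in replicate 2 (44.1 against 61.8 CPM), opposite to pdr-1. Whether any reads of these neighbours were counted for the regulators was not tested.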

How the data were processed

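The deposited values are raw gene counts, not normalized by the authors. Per the labels' protocols, a stranded kit was used on poly-A RNA. HTSeq, TopHat and Bowtie2 are among the tools in the submitters' processing notes, which give no roles. The genome build and strand setting behind the counts are not given in the sources used. The 5 rows that name no gene entered neither totals nor tests, and reads outside any gene were 6.72% and 6.64% of all rows.

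CPM were taken over the total of all gene rows, with SD over n = 2 and exact 95% intervals. All intervals and floors (3 counts) cover counting error only, since no molecular identifiers are mentioned in the labels. Spans and names came from a RefSeq table of NC12, which held 9729 of 9730 loci. Spans include introns. They replaced the intended coding lengths, and an intended search of protein sequences was not made, since neither was used here. The test between libraries was an exact binomial test (scipy 1.17.1, 0.5 counts added in log2 ratios, TMM from edgeR 4.0.16), run on simulated data. The simulated counts held counting error only, so they could not show calls made by the wider spread between these libraries. DESeq2 1.42.0 size factors, total counts, a fold of 1.5, no filter, 5 counts for detection, edgeR's exact test and leaving out each replicate were the alternatives. The regulators and lists were chosen with earlier results of these data known. Of 59 list genes, 15 without a name in the table were left out. All 7 regulators, all genes around CRE-1, ire-1, and of other lists the highest, lowest and called genes are named.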

Additional observations from a re-analysis of the deposited data

How the results depend on the processing

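No paired analysis was possible because the RNA libraries form a single group. The planned coding lengths and the protein search were not run. Without division by span, the activators as a percent of cre-1 averaged 26.4% for vib-1, 11.5% for col-26, 4.53% for clr-1, 3.03% for pdr-1 and 0.159% for clr-2. The lead of cre-1 over the sum of the activators averaged 2.12-fold. The percent of xlr-1 moved by less than its spread, and the count of 6 activators below cre-1 stayed. Lowering the fold to 1.5 called 2 of the 7 regulators (xlr-1 and col-26), beside 1464 of all 7898 tested genes. Of those genes, 972 were higher in replicate 1 and 492 in replicate 2. So few regulators called show nothing about them as a set. edgeR's exact test with the 2-fold minimum called 0 regulators and 51 genes, 47 higher in replicate 1 and 4 in replicate 2. Total-count scaling, DESeq2 size factors and no filter left each count of calls within 1.5 times. No regulator changed the direction of its ratio under any of these. Leaving out either replicate moved no level, percent of cre-1 or list median by more than 1 SD, which with 2 libraries it cannot do. Without division by span the percentiles among detected genes moved by more than their spread for 6 of the 7 regulators, and clr-1 rose from below to above the median, to 59.1 on average. With detection at 5 counts, the mean percentile per kilobase moved by more than its spread for 2 regulators. It rose from 1.03 to 2.86 for clr-2 and from 36.3 to 38.3 for pdr-1. Depth limits the genes with few counts, among them clr-2.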

Other observations

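Adjacent genes leaned the same way between these libraries to a small degree. Across 6801 pairs of neighbouring tested genes, the log2 ratio of replicate 1 over replicate 2 had a Pearson's r of 0.207 and a Spearman's rho of 0.172. This is a description across genes that share libraries and scaling, and genes are not independent replicates. The gene bdp-1 (NCU08809), next to cre-1, leaned to replicate 2 at 1.24-fold (232 against 278 CPM), opposite to cre-1. On the other side of cre-1, NCU08806 leaned to replicate 1 at 1.31-fold (52.8 against 38.7 CPM), the same way as cre-1.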
